A study of Mus musculus with 15 samples.

Results

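The 10 genes described here hold back the cell cycle or growth: the cyclin-dependent kinase (CDK) inhibitors Cdkn1a, Cdkn1b, Cdkn2a, Cdkn2b, Cdkn2c and Cdkn2d, the stress-response genes Gadd45a and Gadd45b, and the antiproliferative genes Btg1 and Btg2. They were taken by name, as the entries whose symbol equalled one of these 10, and all 10 were found among the 23359 genes of the deposited comparison tables. RNA-seq had been made from leukemia stem cells (LSC) of a mouse leukemia driven by the human oncogenes BCR-ABL and NUP98-HOXA9, used as a model of blast-crisis chronic myeloid leukemia. The LSC came from gonadal adipose tissue (AT LSC), peripheral blood (BL LSC), spleen (SPL LSC) and bone marrow (BM LSC) of mice that had received leukemia cells 12 days before, and their counterparts came from normal bone marrow (NBM). Each of the 5 groups had 3 libraries, 15 in all, and every mouse was female and 3 months old. The labels enter the same leukemia model and the same transplantation text for the NBM libraries, so how the normal donors were kept is not stated apart from the name of the group. They give no sort gate for the LSC, and nothing in them ties the 3 libraries of a group to different mice, in which case the spread behind the authors' q-values may be technical.

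CDK inhibitors of the Cip/Kip family (p21 from Cdkn1a, p27 from Cdkn1b) bind complete cyclin-CDK complexes, whereas the INK4 proteins (p16, p15, p18 and p19 from Cdkn2a, Cdkn2b, Cdkn2c and Cdkn2d) bind CDK4 and CDK6 and keep them from D-type cyclins. GADD45 proteins are small stress-induced proteins that bind cell cycle kinases and activate the MAP kinase kinase kinase MEKK4, and BTG proteins are adaptors that bring the CCR4-NOT deadenylase to messenger RNAs. In blood formation, p18 and p27 are known for limiting the cycling of stem and progenitor cells, and BTG1 and BTG2 for the quiescence of lymphocytes.

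Levels are given as FPKM, the fragments assigned to a gene, scaled to its transcript length and to sequencing depth. For each group the authors deposited a single FPKM pooled over its 3 libraries, with bounds 2 standard deviations away, so no value of a single library is shown. A fold is on the log2 scale, with the group named first as numerator, and its error (±) is the standard error obtained by dividing the deposited fold by its test statistic. Genes were called where they had been tested and had a q-value below 0.05 in the authors' deposited table. All 10 genes were tested in all 10 comparisons, and the comparisons share groups, so their folds are not independent of each other.

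The pooled columns held 1.96e+07 estimated counts for AT LSC, 1.95e+07 for BL LSC, 8.96e+06 for SPL LSC, 1.65e+07 for BM LSC and 1.95e+07 for NBM, so the SPL values rest on the fewest fragments. Of 10 stem and progenitor markers, 7, 6, 8 and 10 stood at 1 FPKM or more in AT, BL, SPL and BM LSC, and 9 did in NBM. Kit was at 1.64, 2.26, 4.10 and 2.93 FPKM in AT, BL, SPL and BM LSC, below the 10.4 FPKM of NBM. Other markers of the list went the other way. Gata2 was at 4.08, 2.39, 7.86 and 10.9 FPKM in the same LSC groups against 1.78 FPKM in NBM. Hoxa9 was at 2.63, 2.78, 2.03 and 3.65 FPKM against 0.771 FPKM. Over NBM, 1, 1, 2 and 2 of the 10 were called higher and 5, 5, 3 and 3 lower in AT, BL, SPL and BM LSC. The shares over all genes are given further below. The 6 adipocyte markers summed to 0.693 FPKM in AT LSC and to 0.0631 to 0.139 FPKM in the other groups. The 8 stromal markers summed to 29.5 FPKM in AT LSC, of which Dcn was 21.0 FPKM, and to 1.10 to 2.86 FPKM elsewhere. In bulk RNA of this kind, fewer cells of a type and less RNA per cell cannot be told apart. The median fold of all tested genes lay below 0 where AT or BL LSC were set against another group, and it reached -0.52 in AT over SPL LSC. Calls were therefore also made after centring the folds of each comparison on that median.

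The members differed widely in level. Btg2, Cdkn2d, Cdkn1a and Btg1 were the abundant genes, and their levels ran between 4.98 FPKM, for Btg1 in SPL LSC, and 77.6 FPKM, for Btg2 in NBM. Cdkn2a and Cdkn2b were scarce everywhere, at 1.20 FPKM or less. The summed level of all 10 was 138 FPKM in AT LSC, 138 FPKM in BL LSC, 73.4 FPKM in SPL LSC, 88.8 FPKM in BM LSC and 133 FPKM in NBM, so the AT and BL sums lay close to that of NBM with a different make-up, holding more Cdkn1a and Btg1 and less Btg2.

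**Figure D1:**
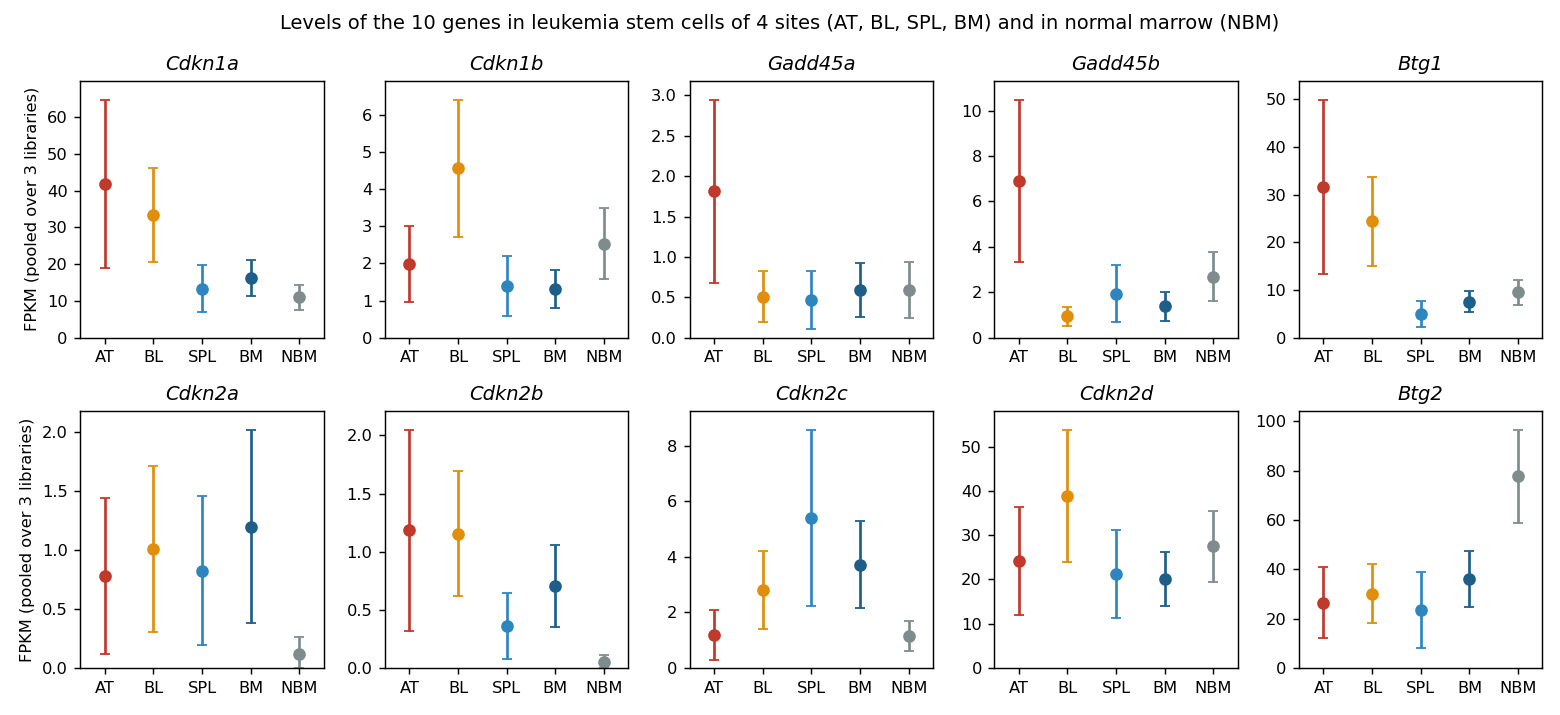
FPKM of each of the 10 genes (vertical axis, linear, from 0) in AT, BL, SPL and BM LSC and in NBM; points are the authors' values pooled over 3 libraries and bars their bounds, 2 standard deviations on either side. Cdkn1a and Btg1 stand high in AT and BL LSC, Gadd45a and Gadd45b in AT LSC, and Btg2 in NBM.

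Promoter sequence is shown for 6 members whose levels set groups apart. Cdkn1a, Gadd45b and Btg1 were high in AT LSC, and Btg2 was high in NBM. Cdkn2a and Cdkn2b lie side by side and were both scarce, but higher in LSC than in NBM. Each window runs from 250 bases before to 50 after a transcription start in RefSeq on GRCm38.p6, the assembly of mm10, on the strand of the gene. The last bases of the Btg2 window were not found in a GENCODE M21 transcript of that gene, unlike those of the other windows. Capitals mark matches, on either strand, to the letters TGACGTCA (a cyclic AMP response element), ACATGT (the core of a p53 half-site), GGGCGG (a GC box), CCAAT and TATAAA. These motifs were chosen after the sequences had been seen, and a match is a description of the letters, not of binding.
Cdkn1a, upstream start, chr17:29090729-29091028, plus strand: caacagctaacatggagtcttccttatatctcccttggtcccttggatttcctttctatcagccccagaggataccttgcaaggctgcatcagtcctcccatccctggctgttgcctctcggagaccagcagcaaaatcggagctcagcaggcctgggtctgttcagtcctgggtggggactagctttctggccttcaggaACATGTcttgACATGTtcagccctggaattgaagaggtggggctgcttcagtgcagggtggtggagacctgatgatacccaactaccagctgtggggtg
Cdkn2a, start of the p16 transcript, chr4:89282143-89282442, minus strand: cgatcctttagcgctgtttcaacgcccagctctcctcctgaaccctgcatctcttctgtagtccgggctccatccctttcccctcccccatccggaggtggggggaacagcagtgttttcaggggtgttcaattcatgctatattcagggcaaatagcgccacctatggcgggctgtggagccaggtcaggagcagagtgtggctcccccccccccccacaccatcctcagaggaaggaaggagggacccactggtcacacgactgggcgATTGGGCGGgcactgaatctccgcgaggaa
Cdkn2b, chr4:89310983-89311282, minus strand: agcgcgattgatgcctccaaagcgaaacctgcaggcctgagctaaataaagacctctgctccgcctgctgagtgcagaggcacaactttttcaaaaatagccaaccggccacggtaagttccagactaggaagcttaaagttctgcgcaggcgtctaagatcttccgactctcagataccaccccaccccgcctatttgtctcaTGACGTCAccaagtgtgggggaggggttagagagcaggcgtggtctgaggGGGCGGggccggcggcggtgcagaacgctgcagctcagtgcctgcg
Gadd45b, chr10:80929841-80930140, plus strand: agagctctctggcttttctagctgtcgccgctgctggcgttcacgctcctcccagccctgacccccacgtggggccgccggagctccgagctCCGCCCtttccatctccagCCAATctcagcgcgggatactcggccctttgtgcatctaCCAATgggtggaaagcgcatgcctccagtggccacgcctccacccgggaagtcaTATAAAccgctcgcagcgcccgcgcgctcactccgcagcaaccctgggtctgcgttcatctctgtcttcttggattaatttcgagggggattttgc
Btg1, chr10:96616751-96617050, plus strand: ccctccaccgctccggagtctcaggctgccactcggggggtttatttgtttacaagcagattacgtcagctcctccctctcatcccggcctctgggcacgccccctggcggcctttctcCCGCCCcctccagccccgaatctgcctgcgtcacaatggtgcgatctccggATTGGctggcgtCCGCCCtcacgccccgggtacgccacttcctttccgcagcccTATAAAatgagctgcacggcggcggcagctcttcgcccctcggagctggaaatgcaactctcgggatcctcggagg
Btg2, chr1:134079106-134079405, minus strand: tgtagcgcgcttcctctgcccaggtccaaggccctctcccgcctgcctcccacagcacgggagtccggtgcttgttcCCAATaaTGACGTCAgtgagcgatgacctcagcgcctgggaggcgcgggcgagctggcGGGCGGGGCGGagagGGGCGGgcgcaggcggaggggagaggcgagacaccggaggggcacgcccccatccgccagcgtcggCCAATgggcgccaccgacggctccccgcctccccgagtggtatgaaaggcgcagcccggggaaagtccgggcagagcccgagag

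The upstream Cdkn1a window held 2 copies of ACATGT a few bases apart, a density reached by 0.329% of the 32851 windows of all genes, while 5.28% held at least 1 copy. None of the 12 other windows of the members held that motif. Cdkn2b and Btg2 each held TGACGTCA, which 1.79% of all windows hold. The GC box, present in a window of all 10 members, is common, at 35.7% of all windows, and so is CCAAT, found for 8 members and in 37.4% of all windows. A member with more than 1 window was counted if any of them held the motif. Counts of members and shares of single windows are therefore unlike measures. TATAAA stood in the Gadd45b and Btg1 windows and in 13.6% of all windows. In Cdkn2a the CCAAT box, read on the other strand, and the GC box overlap, and in Btg2 some GC boxes overlap each other.

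Cdkn1a encodes p21, which blocks cyclin-CDK complexes and is a textbook target of p53. The gene lies on mm10 chromosome 17 from 29090986 to 29100722. Its level was 41.8 FPKM in AT LSC, 33.5 FPKM in BL LSC, 13.3 FPKM in SPL LSC, 16.2 FPKM in BM LSC and 10.9 FPKM in NBM. AT and BL LSC thus had the highest values, but the lower bound of AT LSC, 18.9 FPKM, lay below the upper bounds of SPL LSC (19.7 FPKM) and BM LSC (21.1 FPKM) and above that of NBM (14.5 FPKM). The lower bound of BL LSC, 20.7 FPKM, lay below the upper bound of BM LSC and above those of SPL LSC and NBM. In the authors' deposited table, Cdkn1a was higher in AT than in BM LSC by 1.37 ± 0.45 (q = 0.0158) and higher in AT than in SPL LSC by 1.65 ± 0.52 (q = 0.0116). BL LSC exceeded BM LSC by 1.05 ± 0.35 (q = 0.0177) and SPL LSC by 1.33 ± 0.44 (q = 0.0164) in the authors' deposited table. The difference between AT and BL LSC was within its error, at 0.32 ± 0.48 (q = 0.734, authors' deposited table). Against NBM, the authors' deposited table called Cdkn1a higher in AT LSC, at 1.93 ± 0.46 (q = 0.000368), and in BL LSC, at 1.61 ± 0.36 (q = 0.000135). It made no such call in SPL LSC, at 0.29 ± 0.41 (q = 0.719, authors' deposited table), or in BM LSC, at 0.57 ± 0.32 (q = 0.209). All 6 calls of Cdkn1a were also made after centring.

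Cdkn1b encodes p27, the other Cip/Kip inhibitor, and lies on chromosome 6 from 134920401 to 134925525. It was far scarcer than Cdkn1a, at 1.98 FPKM in AT LSC, 4.56 FPKM in BL LSC, 1.40 FPKM in SPL LSC, 1.30 FPKM in BM LSC and 2.54 FPKM in NBM. BL LSC held the highest level and SPL and BM LSC the lowest. The authors' deposited table called Cdkn1b higher in BL than in BM LSC by 1.81 ± 0.40 (q = 0.00014) and higher in BL than in SPL LSC by 1.71 ± 0.51 (q = 0.00651). AT over BM LSC, at 0.60 ± 0.47 (q = 0.42), and AT over BL LSC, at -1.21 ± 0.47 (q = 0.0503), missed the threshold in the authors' deposited table. Against NBM none of the 4 LSC groups was called in the authors' deposited table, at 0.85 ± 0.40 for BL LSC (q = 0.12) and -0.96 ± 0.39 for BM LSC (q = 0.0633), but BL over NBM was called after centring (fold 1.21, q = 0.0177). The ratio of Cdkn1a to Cdkn1b in FPKM was 21.1 in AT LSC, 7.34 in BL LSC, 9.54 in SPL LSC, 12.4 in BM LSC and 4.31 in NBM.

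Cdkn2a and Cdkn2b form the INK4 locus on chromosome 4, Cdkn2a from 89274473 to 89294619 and Cdkn2b from 89306289 to 89311032. Cdkn2a encodes p16 and, from another start and reading frame, ARF, which stabilises p53; the deposited value sums both transcripts. Cdkn2a stood at 0.778 FPKM in AT LSC, 1.01 FPKM in BL LSC, 0.826 FPKM in SPL LSC, 1.20 FPKM in BM LSC and 0.119 FPKM in NBM. These levels rest on few fragments, with 47.0, 55.6, 16.6 and 49.2 estimated counts in AT, BL, SPL and BM LSC and 4.42 in NBM. The 4 LSC groups lay close together and NBM was lowest, though the bounds of AT and SPL LSC reached down to 0.117 and 0.190 FPKM, below the upper bound of NBM at 0.261 FPKM. The authors' deposited table called Cdkn2a higher than in NBM in all 4 LSC groups, by 2.71 ± 1.06 in AT LSC (q = 0.0494), 3.09 ± 1.00 in BL LSC (q = 0.0137), 2.80 ± 1.03 in SPL LSC (q = 0.0341) and 3.33 ± 0.99 in BM LSC (q = 0.00654). Among the LSC groups no difference was called, and the folds lay between -0.62 ± 0.79 in AT over BM LSC and 0.29 ± 0.75 in BL over SPL LSC in the authors' deposited table. The direction of AT over SPL LSC and of BL over BM LSC turned with the scaling of the groups.

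Cdkn2b, which encodes p15 and is known as a target of TGF-beta signaling, stood at 1.18 FPKM in AT LSC, 1.15 FPKM in BL LSC, 0.361 FPKM in SPL LSC, 0.706 FPKM in BM LSC and 0.0506 FPKM in NBM. Estimated counts were 132, 108, 12.1 and 49.2 in AT, BL, SPL and BM LSC and 3.54 in NBM. All 4 LSC groups lay above NBM, and only the bounds of SPL LSC, from 0.0774 FPKM, met those of NBM, up to 0.114 FPKM. It gave the largest folds of any member over NBM in the authors' deposited table, at 4.54 ± 1.05 in AT LSC (q = 0.000243), 4.51 ± 0.97 in BL LSC (q = 6.49e-05), 2.83 ± 1.07 in SPL LSC (q = 0.0408) and 3.80 ± 0.98 in BM LSC (q = 0.0012). The SPL over NBM call was lost after centring (q = 0.0586) for Cdkn2b, and for both INK4 genes when folds were rescaled by total or upper quartile counts or adjusted within the comparison. With so few fragments in NBM, these folds carried standard errors of 0.97 or more. Between sites, BL over SPL LSC was 1.68 ± 0.66 (q = 0.0509) and AT over SPL LSC 1.71 ± 0.77 (q = 0.101) in the authors' deposited table, both short of a call and both called after centring (q = 0.0128 and 0.0261).

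Cdkn2c encodes p18 and lies on the same chromosome from 109660876 to 109665372. Its level was 1.19 FPKM in AT LSC, 2.82 FPKM in BL LSC, 5.40 FPKM in SPL LSC, 3.72 FPKM in BM LSC and 1.15 FPKM in NBM. SPL LSC were highest, AT LSC were as low as NBM, and BL LSC lay between. The authors' deposited table called it higher than in NBM in BL LSC, by 1.29 ± 0.50 (q = 0.045), in SPL LSC, by 2.23 ± 0.54 (q = 0.000584), and in BM LSC, by 1.69 ± 0.46 (q = 0.00229). AT over NBM was 0.04 ± 0.65 (q = 0.984) in the authors' deposited table. AT LSC were lower than BM LSC by a fold of -1.65 ± 0.63 (q = 0.0446) and lower than SPL LSC by -2.18 ± 0.70 (q = 0.0122) in the authors' deposited table. Both of these calls were lost after centring, at -1.17 (q = 0.213) and -1.67 (q = 0.0802). It was the only member called lower in AT LSC than in LSC of another site.

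Cdkn2d encodes the INK4 protein p19 and lies on chromosome 9 from 21288464 to 21291209. It was the most even member, at 24.1 FPKM in AT LSC, 38.8 FPKM in BL LSC, 21.2 FPKM in SPL LSC, 20.1 FPKM in BM LSC and 27.5 FPKM in NBM, a 1.93-fold range. BL LSC were highest and the other 4 groups close together. A single comparison was called in the authors' deposited table, BL over BM LSC at 0.95 ± 0.35 (q = 0.0374), and centring added BL over SPL LSC (fold 1.27, q = 0.024). The ratio of Cdkn2d to Cdkn2c in FPKM was 20.3 in AT LSC, 13.8 in BL LSC, 3.94 in SPL LSC, 5.42 in BM LSC and 23.8 in NBM, so the ratio was lowest in SPL and BM LSC.

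Gadd45a is a stress-induced gene known as a p53 target. Its deposited entry on chromosome 6 spans 67035096 to 67080652 and overlaps 1 other entry, E230016M11Rik, so reads of the pair may not be told apart. It stood at 1.81 FPKM in AT LSC, 0.509 FPKM in BL LSC, 0.468 FPKM in SPL LSC, 0.590 FPKM in BM LSC and 0.593 FPKM in NBM. AT LSC were high and the other 4 groups level, although the lower bound of AT LSC, 0.679 FPKM, lay below the upper bounds of those 4. The authors' deposited table called Gadd45a higher in AT LSC in all 4 comparisons, by 1.83 ± 0.64 over BL (q = 0.0235), 1.95 ± 0.71 over SPL (q = 0.0331), 1.62 ± 0.61 over BM (q = 0.0386) and 1.61 ± 0.62 over NBM (q = 0.0441). The remaining 6 comparisons were not called, with folds between -0.34 and 0.12 in the authors' deposited table. Gadd45a in AT over BL LSC lost its call when q-values were adjusted within that comparison (q = 0.0919).

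Gadd45b, an early-response gene induced by stress and inflammatory signals, lies on chromosome 10 from 80930091 to 80932204. Its level was 6.90 FPKM in AT LSC, 0.938 FPKM in BL LSC, 1.94 FPKM in SPL LSC, 1.38 FPKM in BM LSC and 2.68 FPKM in NBM, with AT LSC highest and BL LSC lowest. The lower bound in AT LSC, 3.34 FPKM, lay above the upper bounds of BL, SPL and BM LSC (1.37, 3.19 and 2.01 FPKM) and below that of NBM (3.76 FPKM). AT LSC exceeded BL LSC by 2.88 ± 0.50 (q = 3.54e-07), SPL LSC by 1.83 ± 0.60 (q = 0.0144), BM LSC by 2.32 ± 0.50 (q = 6.41e-05) and NBM by 1.37 ± 0.47 (q = 0.0229) in the authors' deposited table. BL LSC fell below NBM, at -1.51 ± 0.44 (q = 0.00537) in the authors' deposited table, and that call was lost after centring (-1.15, q = 0.0515). Gadd45g, the third gene of the family and not a member, stood at 13.4 FPKM in AT LSC against 3.72, 3.60 and 3.91 FPKM in BL, SPL and BM LSC and 3.90 FPKM in NBM. The authors' deposited table called Gadd45g higher in AT LSC in all 4 comparisons, with q between 0.00106 and 0.00494. All 3 GADD45 genes were thus highest in AT LSC, the group in which the stromal markers also had the highest sum. Of the 8 stromal markers, 7 were tested in AT over BM LSC, and 6 were called higher and 0 lower. Of all tested genes, 7.24% were higher and 15.5% lower in that comparison. Pdgfrb, at 0.502 FPKM in AT and 2.21 FPKM in BM LSC, and Col1a2, at 0.425 FPKM in AT and 1.06 FPKM in SPL LSC, were not highest in AT LSC. The part of the stromal markers in the GADD45 levels was not tested.

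Btg1 lies on chromosome 10 from 96617001 to 96622811 and has a pseudogene copy, Btg1-ps1, in the GENCODE M21 annotation; the assignment of shared reads is not given in the sources used here. Btg1 expression was 31.6 FPKM in AT LSC, 24.5 FPKM in BL LSC, 4.98 FPKM in SPL LSC, 7.56 FPKM in BM LSC and 9.51 FPKM in NBM. AT and BL LSC were high, and their lower bounds, 13.4 and 15.1 FPKM, lay above the upper bounds of SPL LSC (7.74 FPKM), BM LSC (9.80 FPKM) and NBM (12.1 FPKM). In the authors' deposited table, AT LSC exceeded SPL LSC by 2.67 ± 0.58 (q = 7.45e-05), BM LSC by 2.07 ± 0.47 (q = 0.000172) and NBM by 1.73 ± 0.46 (q = 0.00185). BL LSC exceeded SPL LSC by 2.29 ± 0.48 (q = 4.82e-05), BM LSC by 1.69 ± 0.35 (q = 2.86e-05) and NBM by 1.36 ± 0.34 (q = 0.000803) in the authors' deposited table. AT over BL LSC, at 0.37 ± 0.50 (q = 0.693, authors' deposited table), and SPL over BM LSC, at -0.60 ± 0.45 (q = 0.402), missed the threshold. Cdkn1a was called in the same 6 comparisons as Btg1, all in the same direction.

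Macrophage and mature neutrophil markers also differed between these groups. The 7 macrophage markers summed to 80.1 FPKM in AT LSC, 194 FPKM in BL LSC, 34.5 FPKM in SPL LSC, 49.5 FPKM in BM LSC and 59.4 FPKM in NBM. The 6 neutrophil markers summed to 47.5, 77.8, 15.0 and 20.9 FPKM in AT, BL, SPL and BM LSC and to 40.1 FPKM in NBM. Of the macrophage markers 3 were called higher and 1 lower in AT than in BM LSC, and 3 higher in BL than in BM LSC; of the neutrophil markers 1 and 5 were higher in these comparisons. Against NBM, 1 macrophage marker was higher and 4 lower in AT LSC, and 2 were higher and 3 lower in BL LSC. Of the neutrophil markers 1 was higher and 1 lower in AT LSC, and 2 higher in BL LSC. Of all tested genes, 7.24% were higher and 15.5% lower in AT over BM LSC, and 10.5% and 22.8% in BL over BM LSC. Against NBM the shares were 7.94% and 15.5% in AT LSC, and 11.5% and 22.9% in BL LSC. With 7 and 6 markers tested, the counts of 1 lay near those shares. In AT and BL LSC most of the macrophage sum came from Emr1, at 46.0 FPKM in AT LSC, 122 FPKM in BL LSC and 4.84 FPKM in NBM, and Csf1r, at 22.9, 54.2 and 22.4 FPKM in the same groups, while C1qa, C1qb, Mrc1 and Cd163 were highest in NBM. The part of both marker lists in the levels of Cdkn1a and Btg1 was not tested. The 6 erythroid entries, mostly globin, summed to 676, 2378, 835 and 782 FPKM in AT, BL, SPL and BM LSC and to 92.7 FPKM in NBM. They were thus highest in BL LSC, as were Cdkn1b and Cdkn2d, and lowest in NBM, as were Cdkn2a and Cdkn2b, and their part in these levels was not tested.

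Btg2, which is both a p53 target and an early-response gene, lies on chromosome 1 from 134074865 to 134079155. Its order of groups differed from that of Btg1, at 26.4 FPKM in AT LSC, 30.1 FPKM in BL LSC, 23.5 FPKM in SPL LSC, 36.0 FPKM in BM LSC and 77.6 FPKM in NBM. NBM alone was high, and its lower bound, 58.8 FPKM, lay above the upper bound of every LSC group, the highest of which was 47.5 FPKM in BM LSC. The authors' deposited table called it lower than in NBM in AT LSC, at -1.56 ± 0.43 (q = 0.00299), in BL LSC, at -1.37 ± 0.34 (q = 0.000639), in SPL LSC, at -1.73 ± 0.51 (q = 0.00575), and in BM LSC, at -1.11 ± 0.29 (q = 0.00145). After centring the fold of AT over NBM was -1.10 and no longer called (q = 0.0571). Between LSC sites no fold of Btg2 was called in the authors' deposited table, the widest being -0.62 ± 0.53 in SPL over BM LSC (q = 0.48). The ratio of Btg2 to Btg1 in FPKM was 0.833 in AT LSC, 1.23 in BL LSC, 4.71 in SPL LSC, 4.76 in BM LSC and 8.16 in NBM. Lymphocyte markers were also high in NBM: the 7 T and NK cell markers summed to 1.57, 2.87, 6.98 and 3.42 FPKM in AT, BL, SPL and BM LSC and to 43.4 FPKM in NBM. The 5 B cell markers summed to 1.46, 4.56, 14.0 and 2.89 FPKM in the same LSC groups and to 21.1 FPKM in NBM. Their part in the Btg2 level of NBM was not tested.

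In the order of levels over the 5 groups, neighbours that differed by a call in the authors' deposited table were BL and BM LSC for Cdkn1a, AT LSC and NBM for Cdkn2a, Gadd45a and Gadd45b, SPL LSC and NBM for Cdkn2b, BL LSC and NBM for Btg1, and BM LSC and NBM for Btg2. For Cdkn1b, Cdkn2c and Cdkn2d no neighbouring groups differed by a call, so their order is resolved only between groups farther apart.

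**Figure D2:**
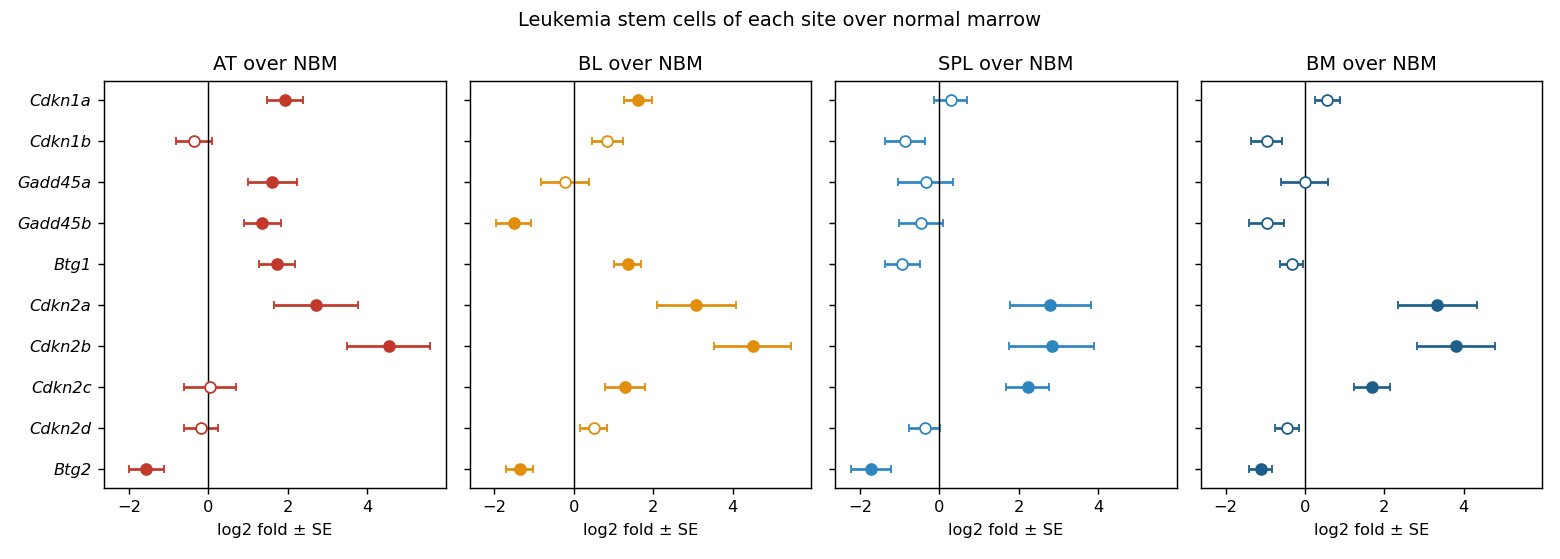
log2 fold of each of the 10 genes (horizontal axis) in AT, BL, SPL and BM LSC over NBM, from the authors' deposited table; bars are 1 standard error, and filled points were called. Cdkn2a and Cdkn2b lie to the right of 0 and Btg2 to the left in all 4 panels, while Cdkn1a and Btg1 are called in AT and BL LSC and the fold of Cdkn2c is 0.04 in AT LSC.

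Cdkn1a and Btg1 were called in all 4 comparisons of AT or BL LSC with BM or SPL LSC. In AT over BM LSC, 4 of the 10 genes were higher (Cdkn1a, Gadd45a, Gadd45b, Btg1) and 1 was lower (Cdkn2c), where 7.24% of all tested genes were called higher and 15.5% lower. After centring 4 were higher and 0 lower, beside 11.8% and 5.11% of all genes. AT over SPL LSC called the same 5 genes, 4 higher and 1 lower, where 7.2% of all genes were higher and 17.9% lower; after centring there were 5 higher and 0 lower, with 11.5% and 6.95% of all genes. The members' median fold was 0.67 in AT over BM LSC and 1.07 in AT over SPL LSC, beside medians of -0.48 and -0.52 over all tested genes.

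BL over BM LSC called 4 members higher (Cdkn1a, Cdkn1b, Cdkn2d, Btg1) and 0 lower, where 10.5% of all genes were called higher and 22.8% lower; the centred calls were also 4 and 0, with 15.6% and 13.5% of all genes. BL over SPL LSC called 3 members higher (Cdkn1a, Cdkn1b, Btg1) and 0 lower, beside 10.2% higher and 23.1% lower over all genes. Centring made these 5 and 0, beside 14.9% and 14.5%. The members' median folds were 0.25 and 0.61 in these comparisons, and those of all genes -0.37 and -0.40. In AT over BL LSC only Gadd45a and Gadd45b were called, 2 higher and 0 lower, where 4.01% of all genes were higher and 2.51% lower; after centring it was again 2 and 0, beside 4.39% and 1.65%. SPL over BM LSC called 0 of the 10 in either direction in the authors' deposited table and also 0 after centring, where few genes were called at all: 1.19% higher and 1.5% lower, and 0.905% and 1.89% after centring. No member had an unadjusted p-value below 0.05 there.

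Against NBM, 6 members were higher and 1 lower in AT LSC, where 7.94% of all genes were higher and 15.5% lower; after centring 6 were higher and 0 lower, beside 12.4% and 6.56%. In BL LSC 5 were higher and 2 lower, beside 11.5% and 22.9% of all genes, and 6 and 1 after centring, beside 16.6% and 14%. SPL LSC had 3 higher and 1 lower, beside 6.37% and 6.19%, and 2 and 1 after centring, beside 5.54% and 6.75%. BM LSC had 3 higher (Cdkn2a, Cdkn2b, Cdkn2c) and 1 lower (Btg2), beside 8.17% and 7.85%, and the same 3 and 1 after centring, beside 8.2% and 7.35%. Cdkn2a and Cdkn2b were called higher and Btg2 lower in all 4 of these comparisons, which share the NBM libraries.

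**Figure D3:**
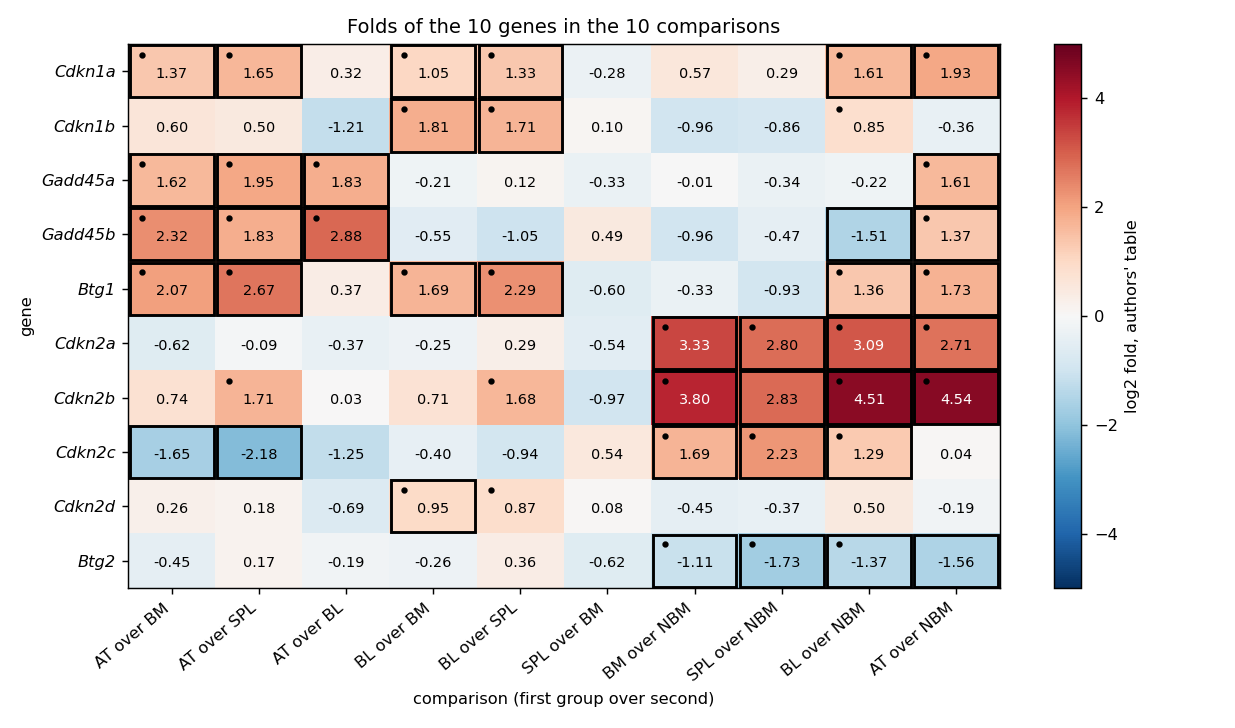
log2 folds from the authors' deposited table for the 10 genes (rows) in the 10 comparisons (columns), with the first group over the second; red is higher and blue lower in the first group. Black frames mark the 41 called folds and dots the 40 called after centring on the median of all tested genes; the SPL over BM column has neither.

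The kinases and cyclins that these inhibitors bind were examined as a list of 12. In BL over BM LSC 1 was higher and 6 lower, beside 10.5% and 22.8% of all tested genes. The median fold was -1.57, beside -0.37 over all tested genes. In AT over BM LSC 0 were higher and 4 lower, beside 7.24% and 15.5% of all genes (median -0.96 beside -0.48). After centring, however, 1 was higher and 0 lower, beside 11.8% and 5.11%. Cdk4, the main partner of the INK4 proteins along with Cdk6, stood at 32.6 FPKM in AT LSC, 18.2 FPKM in BL LSC, 112 FPKM in SPL LSC, 84.3 FPKM in BM LSC and 100 FPKM in NBM. The authors' deposited table called it lower in AT than in BM LSC, by a fold of -1.37 ± 0.45 (q = 0.0159), and in BL than in BM LSC, by -2.21 ± 0.35 (q = 1.79e-08), of which the call in AT LSC was lost after centring (q = 0.174). The ratio of Cdk4 to Cdkn2d in FPKM was 1.35 in AT LSC and 0.467 in BL LSC, against 5.27 in SPL LSC, 4.18 in BM LSC and 3.65 in NBM. Cdk6 took another course, at 2.15, 4.13, 8.31 and 6.21 FPKM in AT, BL, SPL and BM LSC and 2.17 FPKM in NBM. It was lower in AT than in BM LSC by -1.53 ± 0.44 (q = 0.00524) and higher in BM LSC than in NBM by 1.52 ± 0.36 (q = 0.000312) in the authors' deposited table, the first of these again lost after centring (q = 0.0860). Ccnd1 was lower in BM LSC than in NBM by -1.72 ± 0.43 (q = 0.000782), and Ccnd3 was higher in BL than in BM LSC by 1.24 ± 0.42 (q = 0.0194), both in the authors' deposited table. Cdk2 was called in no comparison.

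Proliferation genes were called lower where BL or AT LSC were compared with BM LSC: 15 of 16 in BL over BM LSC (median -2.42) and 8 of 16 in AT over BM LSC (median -1.19), with 13 and 3 after centring. Of all tested genes, 22.8% and 15.5% were lower in these comparisons, and 13.5% and 5.11% after centring. In AT over BL LSC 6 of the 16 were higher and 0 lower, beside 4.01% and 2.51% of all tested genes. Mki67, the proliferation marker Ki-67, stood at 6.51 FPKM in AT LSC, 2.90 FPKM in BL LSC, 17.1 FPKM in SPL LSC, 13.0 FPKM in BM LSC and 16.2 FPKM in NBM. In BM over NBM and SPL over NBM no proliferation gene was called in either direction, while Cdkn2a, Cdkn2b and Cdkn2c were called higher there.

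**Figure D4:**
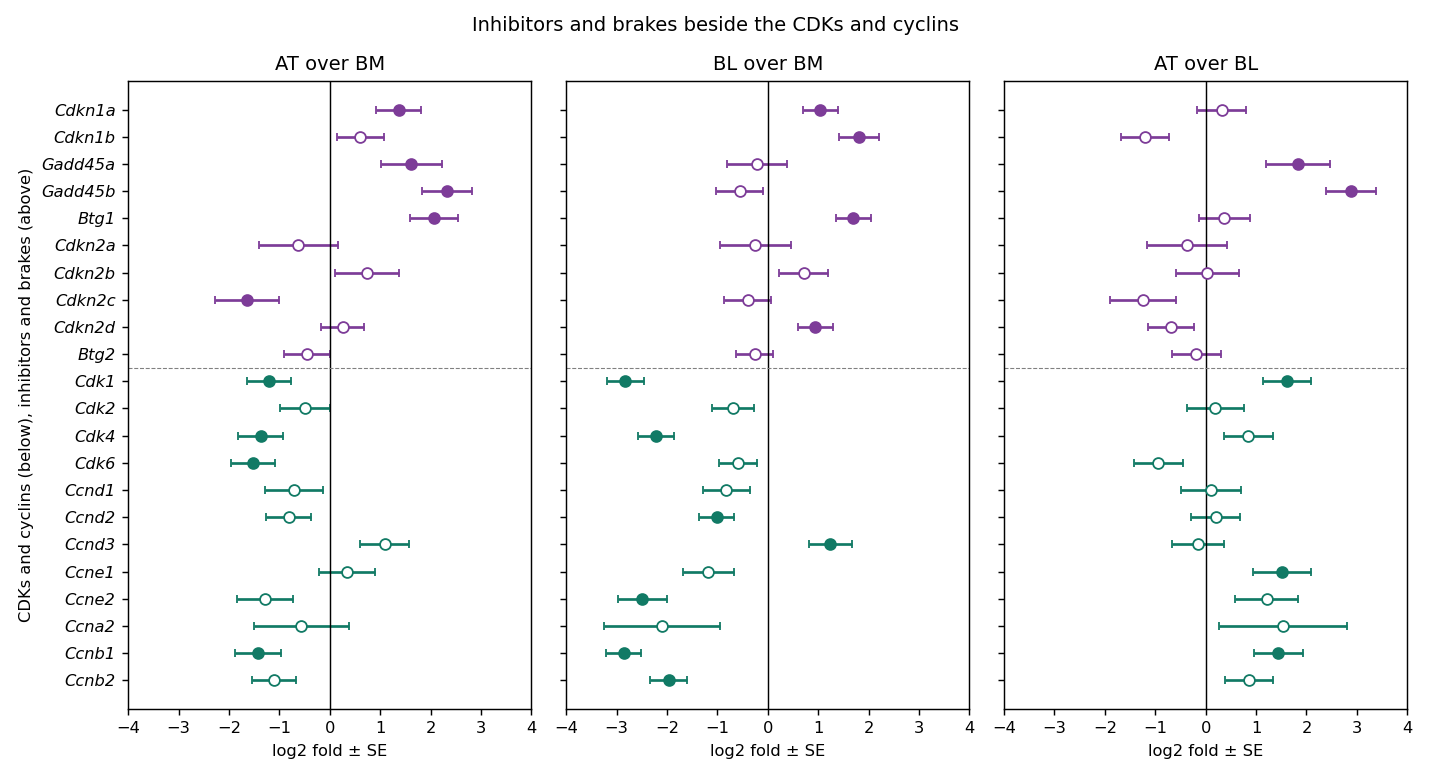
log2 folds (horizontal axis, bars 1 standard error, filled points called in the authors' deposited table) of the 10 inhibitors and brakes above the dashed line and the 12 CDKs and cyclins below it, in AT over BM, BL over BM and AT over BL LSC. In the first 2 panels Cdkn1a and Btg1 lie right of 0 and Cdk1, Cdk4 and Ccnb1 left of it; after centring these kinase and cyclin folds kept their call in BL over BM but not in AT over BM LSC.

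A list of 10 genes drawn up around the turnover of p27 was examined. It also held Ccnf and Fbxw7, which are not known mainly for p27, so its counts are not counts of p27 regulators alone. Skp2, the F-box protein that targets p27 for degradation, was at 0.613 FPKM in AT LSC and 0.368 FPKM in BL LSC, against 4.12 FPKM in SPL LSC, 2.84 FPKM in BM LSC and 3.08 FPKM in NBM. The authors' deposited table called Skp2 lower in AT than in BM LSC, by -2.21 ± 0.61 (q = 0.00313), and in BL than in BM LSC, by -2.95 ± 0.42 (q = 3.06e-10). Cks1b, its cofactor in recognising p27, was called lower in the same comparisons in the authors' deposited table, at -1.20 ± 0.45 (q = 0.0392) and -2.80 ± 0.37 (q = 4.01e-12). The Cks1b call in AT over BM LSC was lost after centring. Of the list, 0 were higher and 5 lower in AT over BM LSC (0 and 2 after centring), and 1 was higher and 5 lower in BL over BM LSC (1 and 4). The 2 that stayed lower in AT over BM LSC after centring were Skp2 (q = 0.0302) and Ccnf (q = 0.0177). The gene higher in BL over BM LSC was Fbxw7 (q = 0.0463, authors' deposited table). Of all tested genes, 7.24% were higher and 15.5% lower in AT over BM LSC (11.8% and 5.11% after centring). In BL over BM LSC these shares were 10.5% and 22.8% (15.6% and 13.5%). In BM over NBM 0 of the 10 were called.

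The list of p53 and its targets, which holds none of the 10 members, gave 7 of 22 higher and 3 lower in AT over BM LSC, and 8 higher and 0 lower after centring, with a median of 0.26 beside -0.48 over all genes. In BL over BM LSC it gave 6 higher and 4 lower (8 and 3 after centring), and in AT over NBM 7 higher and 0 lower. Against SPL LSC, where Cdkn1a was also called higher, it gave 5 higher and 6 lower in AT LSC (8 and 2 after centring) and 5 higher and 7 lower in BL LSC (7 and 4 after centring). Over NBM it gave 8 higher and 2 lower in BL LSC and, where Cdkn1a was not called, 6 higher and 0 lower in SPL LSC (5 and 2 after centring) and 3 higher and 2 lower in BM LSC. Of all tested genes, 7.24% were higher and 15.5% lower in AT over BM LSC, and 10.5% and 22.8% in BL over BM LSC. The shares were 7.2% and 17.9% in AT over SPL LSC, and 10.2% and 23.1% in BL over SPL LSC. Those over NBM and those after centring are given above with the member counts. Trp53 itself, which encodes p53, stood at 28.8 FPKM in AT LSC and 18.9 FPKM in BL LSC, against 102 FPKM in SPL LSC, 70.3 FPKM in BM LSC and 66.9 FPKM in NBM. Mdm2, a p53 target that encodes its ubiquitin ligase, was at 12.8 FPKM in AT LSC, 5.75 FPKM in BL LSC, 3.85 FPKM in SPL LSC, 3.60 FPKM in BM LSC and 2.74 FPKM in NBM. Both Mdm2, at 1.83 ± 0.47 (q = 0.00111), and the kinase gene Plk2, at 2.19 ± 0.45 (q = 2.27e-05), were higher in AT than in BM LSC in the authors' deposited table. Perp, a membrane protein gene induced by p53, was higher than in NBM in all 4 LSC groups, by 3.37 ± 0.61 in AT LSC (q = 1.37e-06) and 3.11 ± 0.53 in BM LSC (q = 1.79e-07) in the authors' deposited table.

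Polycomb genes known to repress the INK4 locus, a list of 10 of which 9 were tested, gave 0 higher and 4 lower in BL over NBM (0 and 3 after centring), and 0 higher and 1 lower in each of AT, SPL and BM LSC over NBM (0 and 0 in AT LSC, 0 and 1 in the other LSC groups after centring). Of all tested genes, 22.9% were lower than in NBM in BL LSC, 15.5% in AT LSC, 6.19% in SPL LSC and 7.85% in BM LSC. With 9 genes tested, the counts of 1 lay near those shares. The gene lower in SPL and BM LSC was Rnf2, a core subunit of Polycomb repressive complex 1, at -1.21 ± 0.43 (q = 0.0292) and -1.12 ± 0.34 (q = 0.00753) in the authors' deposited table. Ezh2, the methyltransferase of Polycomb repressive complex 2, stood at 1.63 FPKM in AT LSC, 1.07 FPKM in BL LSC, 5.25 FPKM in SPL LSC, 3.21 FPKM in BM LSC and 4.52 FPKM in NBM. It was lower than in NBM in AT LSC, at -1.47 ± 0.57 (q = 0.0496), and in BL LSC, at -2.08 ± 0.44 (q = 5.65e-05), in the authors' deposited table, and only the second of these calls held after centring.

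A list of 15 genes known as inducers of CDK inhibitors held FOXO and TGF-beta pathway genes and also Klf2, Klf4, Klf6, Cebpa, Egr1 and Zbtb17. Klf4 and Klf2, named below, belong to the second part, so the counts are not a readout of FOXO or TGF-beta signaling. Of the 14 tested, 3 were higher and 1 lower in BL over BM LSC (6 and 1 after centring). In AT over BM LSC 1 was higher and 1 lower (1 and 0). Of all tested genes, 10.5% were higher and 22.8% lower in BL over BM LSC, and 7.24% and 15.5% in AT over BM LSC. The counts of this list in AT over BM LSC lay near or below those shares. Klf4, a transcription factor known to activate Cdkn1a, stood at 4.79 FPKM in AT LSC, 6.26 FPKM in BL LSC, 0.644 FPKM in SPL LSC, 1.02 FPKM in BM LSC and 3.24 FPKM in NBM. In the authors' deposited table it was higher in AT than in BM LSC by 2.23 ± 0.47 (q = 4.45e-05) and in BL than in BM LSC by 2.61 ± 0.40 (q = 4.07e-09). Klf2, known for the quiescence of T cells, was higher in BL than in BM LSC by 1.94 ± 0.37 (q = 5.84e-06) in the authors' deposited table. Of 10 genes of the stress kinase pathway downstream of GADD45 proteins, 2 were higher and 0 lower in AT over BM LSC, namely Atf3 at 1.64 ± 0.46 (q = 0.00351) and Map2k3 at 1.38 ± 0.43 (q = 0.0101) in the authors' deposited table. Of 9 genes of the CCR4-NOT deadenylase and PRMT1, the partners of BTG proteins, 0 were called in AT over BM LSC, and Prmt1 alone was lower in BL over BM LSC, at -1.68 ± 0.37 (q = 0.000117, authors' deposited table). Among 9 other inhibitors and brakes, Tob1, a BTG relative, was called together with Gadd45g in AT over BM LSC. Tob1 was at 0.927, 0.838, 0.124 and 0.210 FPKM in AT, BL, SPL and BM LSC and 0.678 FPKM in NBM, and was higher in AT than in BM LSC by 2.14 ± 0.60 (q = 0.00317) in the authors' deposited table.

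Likeness of pattern was measured as the root mean square difference of log2(FPKM + 1), centred over the 5 groups. It was taken among 5114 genes with a highest FPKM of 5 or more, without entries that merge genes, for the 6 members that reached that level. A pattern over 5 groups gives little to tell patterns apart, so the nearest genes are named only as a description. The gene nearest to Cdkn2c was Cdk6, one of the kinases that p18 binds, at a difference of 0.0608, followed by Fam118b at 0.106 and Polr3gl at 0.127. The ratio of Cdk6 to Cdkn2c in FPKM was 1.82 in AT LSC, 1.46 in BL LSC, 1.54 in SPL LSC, 1.67 in BM LSC and 1.88 in NBM. Cdk6 was picked as nearest by these same values, so the narrow range of the ratio restates that choice and adds nothing to it. Ftl1, a ferritin light chain gene, was nearest to Cdkn1a (0.0879), Arl6ip5 to Cdkn2d (0.0286), Tgif1 to Gadd45b (0.114), Wfdc17 to Btg1 (0.128) and Rassf2 to Btg2 (0.0645). Among the members themselves, the nearest pairs on this scale were Cdkn1b with Cdkn2d (0.137) and Cdkn2a with Cdkn2b (0.273), and the farthest was Cdkn2c with Btg1 (1.41). Low genes lie near each other on a scale with a pseudocount of 1, which bears on the second of these pairs.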

How the data were processed

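RNA-seq libraries were made from low-input total RNA with SMARTer and Nextera XT chemistry, per the labels' protocols. Trimmomatic 0.32, Cufflinks 2.0.2, Cuffdiff and mm10 are named in the submitters' processing notes. The aligner, the gene models and the Cuffdiff release were not given in the sources used here. Per gene and group, the authors deposited 1 FPKM value with bounds and 1 estimated count, each pooled over 3 libraries. For each of 10 pairs of groups the authors deposited a table of test results, which gives a log2 fold with its statistic and the p-value and q-value. No column held a single library, so the planned test on counts per library was replaced, as planned for that case, by the authors' own Cuffdiff test. Adjusting all 127922 tests of the 10 comparisons together by Benjamini-Hochberg gave the deposited q-value to within 1.70e-06. The depth per group bounds the precision, and only counting and library spread as Cuffdiff models them enter the errors.

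From these files the following was computed with Python 3.11.15, pandas 2.3.3, numpy 2.4.6 and scipy 1.17.1. The standard error of a fold is the fold over its statistic. Centring subtracts the median fold of all tested genes and repeats the normal test and the adjustment over all genes of all comparisons. It was tested on simulated folds with the errors that the test assumes and as many rises as falls. Such data cannot show whether the median shift between the real groups is technical. Other scalings, filters and thresholds were tried as alternatives. The 10 members and the 9 gene lists (113 genes, all found) and 9 marker lists (61 of 65 genes found) were chosen with earlier results of these data known. Named genes were all members and, from each list, up to 4 called genes with the largest test statistic in AT over BM, BL over BM or BM over NBM, plus Cdk4, Cdk6, Cdk2, Ccnd1, Ccnd2, Ccnd3, Trp53, Mdm2, Skp2 and Mki67, and for likeness the 3 nearest genes. Entries that merge genes (105) were kept, except in the likeness of pattern, where they were left out. Gene starts, counted from 0 in the files, are printed from 1. Promoter windows came from RefSeq (GRCm38.p6) and matched all 10 members by symbol.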

Additional observations from a re-analysis of the deposited data

How the results depend on the processing

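Of the 41 called folds of the members, 36 kept their call after centring on the median of all tested genes, 37 with total count scaling, 37 with upper quartile scaling, 38 with adjustment within each comparison and 23 at a q threshold of 0.01. All 37 of them with an FPKM of 1 or more in a group kept it under that filter, and 41 did with merged entries left out; no called fold changed direction under these alternatives. Counts of members called that moved by more than 1.5 times are given next; smaller moves, such as BL over SPL with 2 higher at a q threshold of 0.01, or AT over SPL with 5, BL over NBM with 6 and SPL over NBM with 2 higher after centring, are not all listed. At a q threshold of 0.01 the higher counts were 2 in AT over BM, 1 in AT over SPL, 1 in AT over BL, 2 in BL over BM, 1 in SPL over NBM, 3 in BL over NBM and 3 in AT over NBM, and the lower counts 0 in AT over BM and 0 in AT over SPL. The lower counts of AT over BM and of AT over SPL, both Cdkn2c, were also 0 after centring, total count scaling and upper quartile scaling. The higher count of BL over SPL was 5 under each of those 3 scalings. Centring gave 1 lower in BL over NBM and 0 lower in AT over NBM. SPL over NBM had 1 higher with total count scaling, upper quartile scaling, adjustment within the comparison or the FPKM filter, and 2 lower with total count scaling. AT over BL had 1 higher with adjustment within the comparison and 1 lower under the FPKM filter. The cause of these changes was not tested, except that the filter and the thresholds change which genes can be called. Folds that turned their sign were all uncalled. After centring, total count scaling or upper quartile scaling, in that order where 3 values are given, the log2 fold of Cdkn2a, AT over SPL was 0.43, 0.45 and 0.49, the log2 fold of Cdkn1b, SPL over BM was -0.018, -0.12 and -0.0057, the log2 fold of Cdkn2d, SPL over BM was -0.044, -0.15 and -0.032, and the log2 fold of Cdkn2d, AT over NBM was 0.27, 0.068 and 0.24. After centring or upper quartile scaling, the log2 fold of Btg2, AT over BM was 0.028 and 0.018, the log2 fold of Cdkn2a, BL over BM was 0.12 and 0.13, the log2 fold of Gadd45a, BL over BM was 0.15 and 0.17, the log2 fold of Btg2, BL over BM was 0.11 and 0.12, the log2 fold of Gadd45a, BL over NBM was 0.14 and 0.12, and the log2 fold of Cdkn1b, AT over NBM was 0.098 and 0.067. The log2 fold of Btg2, AT over BL was 0.051 with total count scaling, and the log2 fold of Gadd45a, BM over NBM was 0.020 after centring. A pseudocount of 1 moved 18 of the 41 called folds by more than their standard error and a pseudocount of 0.1 moved 4. Leaving out each library was not run, because the deposited columns are pooled. No paired analysis was possible because the columns carry 1 pooled value per group and no replicate number. With 3.54 to 4.42 estimated counts in NBM, the folds of Cdkn2a and Cdkn2b over NBM have standard errors near 1 on the log2 scale, and SPL LSC had the least depth.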

Other observations

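Further genes of the examined lists differed between the sites. Egr1, an early-response transcription factor, stood at 4.25 FPKM in AT LSC, 1.36 FPKM in BL LSC, 4.13 FPKM in SPL LSC, 10.7 FPKM in BM LSC and 6.50 FPKM in NBM. It was lower in BL than in BM LSC by -2.97 ± 0.37 (q = 3.32e-13) and lower in SPL than in BM LSC by -1.37 ± 0.50 (q = 0.0315) in the authors' deposited table. SPL and BM LSC, which differed in the call of none of the 10 inhibitors and brakes, thus differed in Egr1 and also in Klf2, at -2.12 ± 0.54 (q = 0.00102) in the authors' deposited table. Trp53inp1, a p53-induced gene linked to autophagy, was at 1.16 FPKM in AT LSC, 3.36 FPKM in BL LSC, 0.892 FPKM in SPL LSC, 0.874 FPKM in BM LSC and 2.05 FPKM in NBM. It was higher in BL than in BM LSC by 1.94 ± 0.38 (q = 9.93e-06) in the authors' deposited table, and lower in AT than in BL LSC by -1.53 ± 0.53 (q = 0.0241). Cdkn3, a phosphatase that acts on CDKs, stood at 2.65, 1.22, 7.40 and 5.88 FPKM in AT, BL, SPL and BM LSC and 7.44 FPKM in NBM, and was lower in BL than in BM LSC by -2.27 ± 0.46 (q = 1.97e-05) in the authors' deposited table.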
